A study of Rattus norvegicus with 24 samples.

Results

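The early response to proinflammatory cytokines was followed in INS1 cells, a rat insulinoma line that stands in for the pancreatic β-cell, by comparing 3 arrays labelled 6h_Cyt with 3 arrays labelled 6h_Ctrl. These 6 arrays were chosen by their group label alone, out of 24 arrays in 8 groups of 3. Cells of both groups were cultured for 48 h, and the 6h_Cyt cells then received for 6 h a mixture of IL-1β, at 150 pg/ml, with IFN-γ, at 0.1 ng/ml, whereas the 6h_Ctrl cells received neither cytokines nor drug. The other arrays used here were 24h_Cyt and 24h_Ctrl, treated in the same way for 24 h, and 6h_Giv_Cyt and 6h_Giv_Ctrl, in which 125 nM Givinostat, an inhibitor of lysine deacetylases, was given 1 h before the same cytokines or before medium alone. All groups came from this single transformed cell line. Each array measured 758 rat miRs with 16 spots per miR, and a level below is the mean of the 16 quantile-normalized log2 intensities. The comparison asked which miRs had already changed after 6 h of cytokines.

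MiRs are short RNAs that pair with target transcripts through their seed, bases 2 to 8, and lower the output of those transcripts. IL-1β acts on β-cells largely through the transcription factor NF-κB. Among the genes switched on by NF-κB are miR hairpins of the miR-146 family, which in turn pair with transcripts of TRAF6 and IRAK1, proteins of IL-1 receptor signalling. A mature miR can only accumulate after its primary transcript has been made and cut, so early and late times need not look alike.

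The sequences of the miRs that carried the 6 h comparison are given first, because 2 of them share a seed and the array had to tell them apart. They are the mature sequences of RefSeq (GRCr8), 5′ to 3′, with the seed in capitals. A name was found there for 685 of the 758 miRs.
miR-146a-5p: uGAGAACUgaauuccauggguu
miR-146b-5p: uGAGAACUgaauuccauaggcugu
miR-203a-3p: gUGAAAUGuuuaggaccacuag
miR-29b-3p: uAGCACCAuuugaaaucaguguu
miR-375-3p: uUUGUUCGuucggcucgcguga
The array annotation placed the part of miR-146a-5p that the probes cover at chr10:28476387-28476405 and that of miR-146b-5p at chr1:251558065-251558084 (both rn4), so these are products of separate genes. Each of the 3 leading miRs was read by a long and a short probe with 8 spots each. The longer probe of miR-146a-5p was aacccatggaattcagttct, and the longer probe of miR-146b-5p was acagcctatggaattcagttc. Over its whole length, 20 and 21 bases, each matched its own miR, and the longest run shared with the other family member was 15 and 14 bases. The part that hybridization of the other family member had in either signal was not tested.

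Before the results, the arrays themselves had to be compared, since they did not fall into the labelled groups. Across 133 miRs detected on every array of 6h_Ctrl, of 6h_Cyt or of both, 6h_Ctrl replicate 1 resembled 6h_Cyt replicate 2 (Pearson r = 0.998 across miRs) more than it resembled 6h_Ctrl replicate 2 (r = 0.963). A miR counted as well above background on an array, detected in short, when at least 8 of its 16 spots carried that mark. Of the 133 miRs, 110 (82.7%) had both of these arrays on the same side of the other 4 arrays, 41 above and 69 below. In 124 of the 133, this distance was larger than the difference between cytokine and control means. MiR-466b-2-3p was the clearest case, at 10.69, 9.67 and 10.33 in the control arrays and 9.98, 10.63 and 9.80 in the cytokine arrays. The first component of the variation left within the 8 groups held 86.2% of the residual variance of the 133 miRs, and a score for each array on it was 1.90, -1.97 and -0.86 for control replicates 1 to 3 and -1.36, 1.37 and -1.51 for cytokine replicates 1 to 3. Both arrays with high scores also had the most detected miRs, 159 and 157 against 134 to 146 on the other 4. All 6 arrays lay on 1 slide apart from 6h_Cyt replicate 1. The series text calls the replicates technical, so p-values measure the spread between these arrays only. Between the groups, the number of detected miRs did not differ beyond the arrays' spread (145.7 ± 11.5 with cytokines and 143.3 ± 13.7 without, SD, n = 3 each, exact permutation p = 1, where 3 against 3 cannot go below 0.1).

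**Figure D1:**
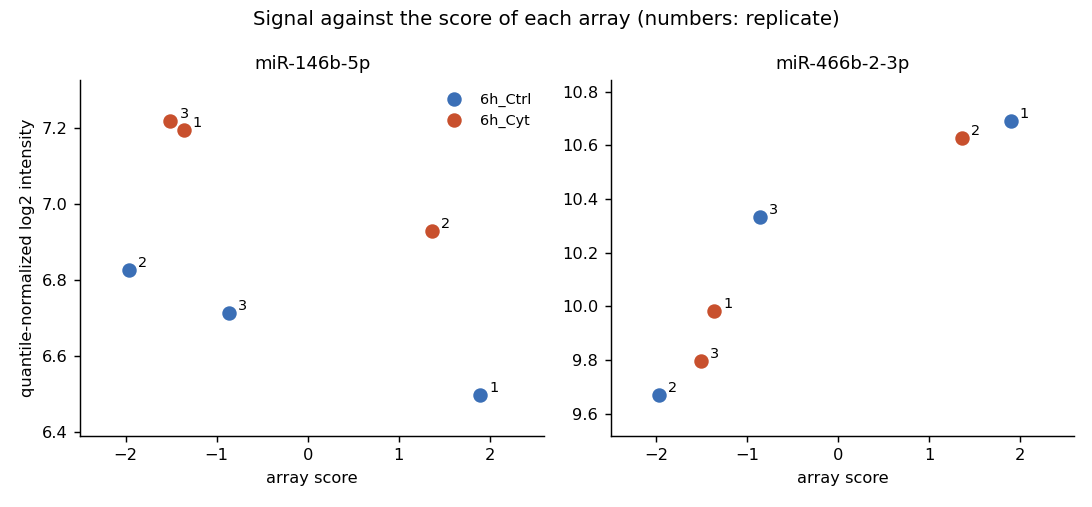
Level of miR-146b-5p (left) and miR-466b-2-3p (right) on each of the 6 arrays (y axis, quantile-normalized log2 intensity) against the score of the array on the first component of the residual variation (x axis, no unit); blue points are 6h_Ctrl, red points 6h_Cyt, and numbers give the replicate. MiR-466b-2-3p followed the score with both groups mixed, whereas the 3 cytokine arrays lay above the 3 control arrays for miR-146b-5p, by 0.43 between the arrays with high scores.

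Within this spread, no miR passed the test after 6 h of cytokines. The call required an adjusted p under 0.05 (limma on array means, Benjamini-Hochberg over 758 miRs) and a log2FC beyond 0.14 either way, which is 1.1-fold. Called were 0 of 758 (0%), and the lowest adjusted p, that of miR-146a-5p, was 0.0619. At an unadjusted p under 0.05 there were 30 miRs (3.96%), 11 higher (1.45%) and 19 lower (2.51%) with cytokines. Of these, 3 were among the 133 detected miRs (2.26%) and 27 among the 625 others (4.32%). The pooled correlation test, which the study used and which treats the 16 spots of a miR as correlated repeats, called 2 miRs (0.264%), miR-146b-5p and miR-203a-3p, both higher. The log2FC ran from -0.22 to 0.44 over all miRs, and its median was -0.00204, with 47% of all miRs and 48.9% of the detected ones above 0.

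**Figure D2:**
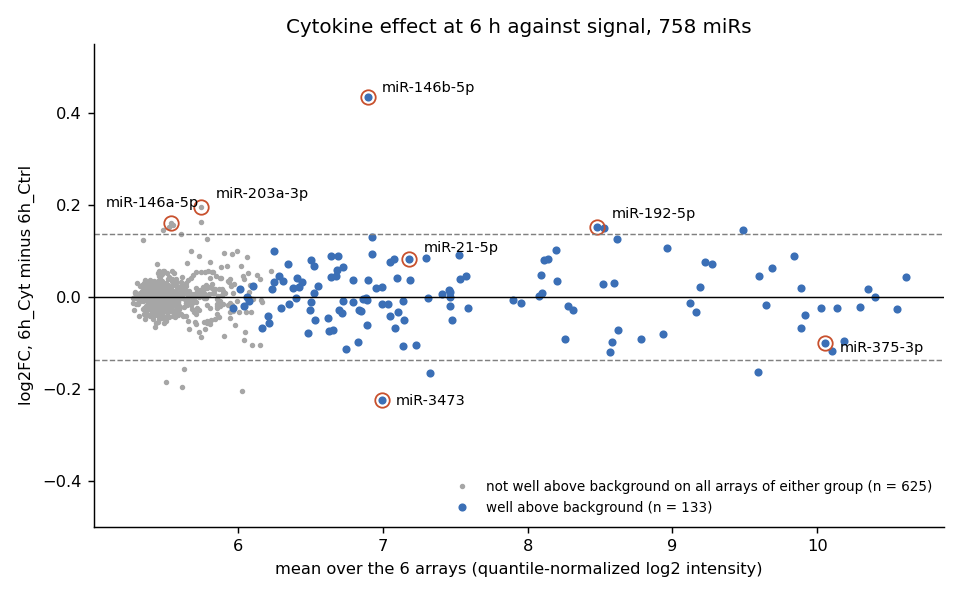
Difference between 6h_Cyt and 6h_Ctrl (y axis, log2FC) against the mean level over the 6 arrays (x axis, quantile-normalized log2 intensity) for 758 miRs; blue, the 133 miRs well above background, grey, the other 625, and dashed lines mark 1.1-fold. MiR-146b-5p stood alone at 0.44, miR-146a-5p and miR-203a-3p lay among the dim miRs at 0.16 and 0.19, and miR-3473 was lowest at -0.22.

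MiR-146b-5p showed the largest difference of all 758 miRs. Its level was 6.50, 6.83 and 6.71 on the control arrays and 7.20, 6.93 and 7.22 on the cytokine arrays, so the groups did not overlap, and all 16 spots were well above background on each array. The log2FC was 0.44 ± 0.18 (SE, n = 3 and 3, 95% interval 0.06 to 0.81), or 1.35-fold, with an unadjusted p of 0.0263 and an adjusted p of 0.999 by limma. The difference had the same size among arrays of like score. Between the high-score arrays, cytokine replicate 2 and control replicate 1, it was 0.43, and between the means of the others it was 0.44. The arrays were grouped by a score built from residuals that include those of miR-146b-5p, so neither value is independent evidence. With the array score as a covariate, added after the data were seen, the log2FC was 0.42 ± 0.05 and the adjusted p 0.000105. The score was estimated from the residuals of these same arrays and miRs, and miR-146b-5p had a loading of -0.88 on it, so a smaller error follows from how it was built and its p-values are no independent evidence. Without both high-score arrays it was 0.44, with fewer arrays and an adjusted p of 0.815, and among the 5 arrays of the shared slide it was 0.39. The background-subtracted processed signal, scaled to the detected miRs, gave 0.77. The intensities before normalization ran the same way, with means of the 16 spots of 97.4, 87.2 and 79.4 in the controls and 129.3, 122.7 and 140.8 with cytokines. The long probe gave a difference of 0.45 and the short probe 0.43. Its passenger arm, miR-146b-3p, was not detected on any array, and its measured signal differed by 0.06 (unadjusted p = 0.0318, adjusted p = 0.999).

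MiR-146a-5p, with the same seed, was much dimmer. It read 5.44, 5.50 and 5.43 on the control arrays and 5.65, 5.62 and 5.59 on the cytokine arrays, again without overlap, but none of the 6 arrays had it well above background, so no fold is given. The difference in measured signal was 0.16 ± 0.03 (SE), the smallest error among the leading miRs, with an unadjusted p of 8.16e-05 and an adjusted p of 0.0619. Unnormalized intensities were 44.6, 43.0 and 42.6 against 47.5, 48.8 and 47.3. Both probes were higher with cytokines, by 0.21 for the longer and 0.12 for the shorter. With the array score as a covariate the difference was 0.16 and the adjusted p 0.00942. Leaving out both high-score arrays gave 0.15 and an adjusted p of 0.404. Without normalization between arrays the difference was 0.14 (unadjusted p = 0.0713 by limma). Background-subtracted processed signal was -0.92, -2.25 and -2.28 in the controls and 4.75, 4.19 and 0.92 with cytokines. After scaling, values under a floor of 4.44 were raised to it before taking logs. The difference was then 0.05 when scaled to the detected miRs (unadjusted p = 0.388) and 0.10 when scaled to all (unadjusted p = 0.260). Both sizes were set largely by that floor.

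MiR-203a-3p, known from the differentiation of skin keratinocytes, was the third miR of this kind. The controls read 5.61, 5.67 and 5.66 and the cytokine arrays 5.92, 5.76 and 5.85, without overlap and without detection on any array. The difference was 0.19 ± 0.05 (unadjusted p = 0.00106, adjusted p = 0.402), and 0.27 and 0.12 for its longer and shorter probes. Its size depended on the background treatment. The background-subtracted signal of these dim spots gave 1.26 (adjusted p = 0.000218) when scaled to the detected miRs. It gave 1.12 (adjusted p = 0.881) when scaled to all, and total signal gave 3.07. Here too, processed values under the floor of 4.44 were raised to it, and total signal under 1 was raised to 1. Before scaling the controls read 4.93, 3.65 and 3.01 in processed signal, so these sizes and p-values depended on the floor. With the array score as a covariate the difference was 0.19 with an adjusted p of 5.81e-05, and no miR other than these 3 was called in that fit. Without both high-score arrays it was 0.22 (adjusted p = 0.404).

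**Figure D3:**
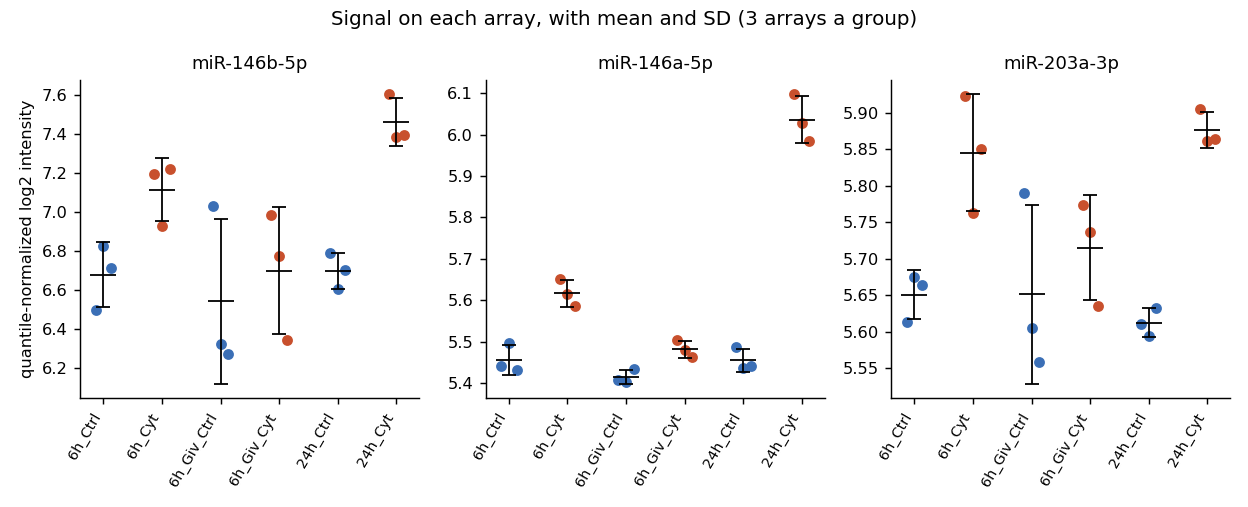
Level of miR-146b-5p, miR-146a-5p and miR-203a-3p (y axes, quantile-normalized log2 intensity, with its own range in each panel) on every array of 6 groups (x axis); blue, without cytokines, red, with cytokines, black bars, mean and SD of 3 arrays. At 6 h without Givinostat the red points lay above the blue points in each panel, and at 24 h the gap was wider for miR-146a-5p, 0.58 against 0.16.

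A list of 21 arms from hairpins that answer to NF-κB or to inflammation held these 3 miRs. Of the 21, 4 were detected and 17 were detected on none of the 6 arrays. None was called, and 5 of 21 had an unadjusted p under 0.05 and a higher signal, beside 1.45% of all miRs in that direction. These were miR-146a-5p, miR-146b-5p, miR-146b-3p, miR-203a-3p and miR-34a-5p. Of these, only miR-146b-5p was detected, and miR-146b gave both of its arms. The list was chosen with earlier results of these data known. The study had also singled out miR-146a-5p and miR-146b-5p on these same arrays, so this count is no independent evidence. MiR-34a-5p, a target of p53, was not detected, and its signal differed by 0.09 (unadjusted p = 0.0369, adjusted p = 0.999). The median log2FC of the 21 was 0.01 (all miRs -0.00204).

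Other members of that list gave no such difference. MiR-155-5p, which NF-κB and AP-1 induce in immune cells, read 5.44, 5.52 and 5.52 in the controls and 5.47, 5.44 and 5.46 with cytokines, without detection on any array, and its difference of -0.04 had a 95% interval of -0.09 to 0.02. MiR-21-5p, a target of STAT3 and NF-κB, was detected on all arrays at 7.06, 7.23 and 7.13 against 7.26, 7.12 and 7.29, so the groups overlapped, and its log2FC was 0.08 (-0.23 to 0.40). MiR-132-3p, a target of CREB, had a log2FC of -0.11 (-0.45 to 0.24). MiR-147, which Toll-like receptors induce in macrophages, was not detected and differed by 0.04 (-0.01 to 0.09). The intervals of miR-21-5p and miR-132-3p include 1.1-fold in both directions, so changes of that size were not detectable with 3 arrays a group.

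The groups did not overlap for 43 of the 758 miRs (5.67%), 17 higher (2.24%) and 26 lower (3.43%), and for 6 of the 133 detected miRs (4.51%), 4 higher (3.01%) and 2 lower (1.5%). Besides miR-146b-5p, the detected ones that were higher were miR-192-5p, miR-125b-5p and miR-384-5p, and those that were lower were miR-3473 and miR-1839-3p. MiR-3473 read 6.96, 7.10 and 7.26 in the controls and 6.94, 6.79 and 6.91 with cytokines, so that the nearest arrays of the 2 groups almost met, and its log2FC was -0.22 ± 0.09 (unadjusted p = 0.0204, adjusted p = 0.999). MiR-125b-5p, a relative of the nematode developmental miR lin-4, read 6.92, 6.84 and 6.81 against 6.96, 7.02 and 6.98, with a log2FC of 0.13 ± 0.06 (unadjusted p = 0.0421, adjusted p = 0.999). MiR-192-5p, a miR of kidney, liver and gut, had a log2FC of 0.15 (95% interval -0.20 to 0.50) and miR-384-5p, which has the seed of the miR-30 family, 0.09 (-0.21 to 0.39). MiR-1839-3p differed by -0.07 (-0.14 to 0.0010). At 24 h the log2FC of miR-3473 was 0.04, and that of miR-125b-5p was 0.17 (adjusted p = 0.101).

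**Figure D4:**
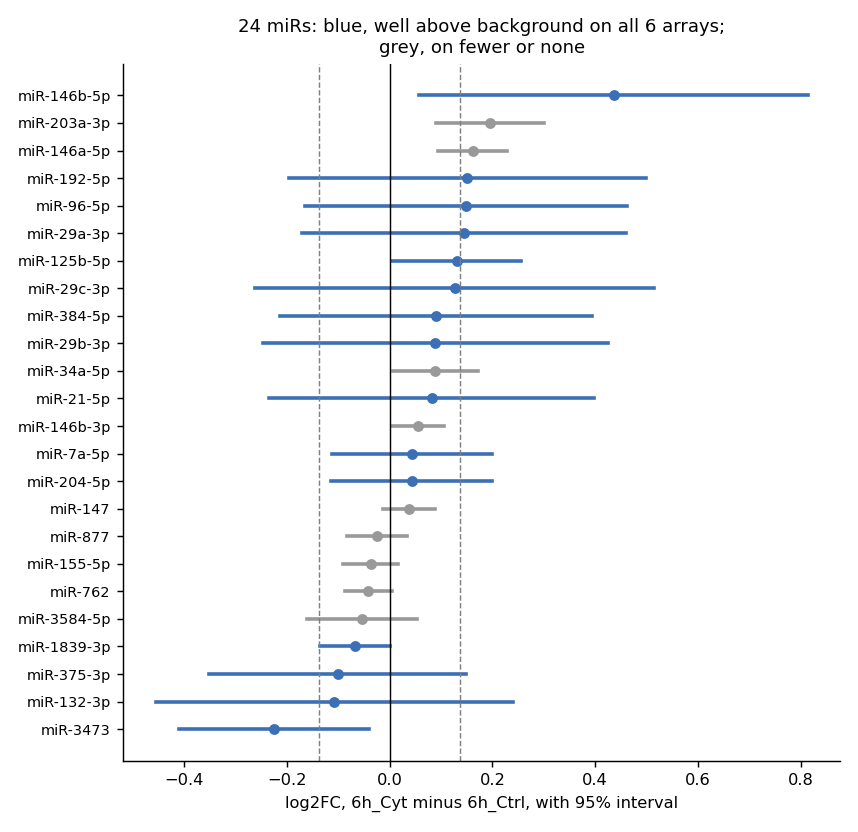
Difference between 6h_Cyt and 6h_Ctrl (x axis, log2FC, point) with its 95% interval (bar) for 24 miRs named in the text; blue, well above background on all 6 arrays, grey, on fewer or none, and dashed lines mark 1.1-fold. The interval of miR-146b-5p ran from 0.06 to 0.81 and that of miR-375-3p from -0.35 to 0.15.

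For the detected miRs the quantile-normalized values, which are not background-subtracted, set bounds on the 6 h difference. In all 133, the 95% interval of the log2FC lay within 1 on either side of 0, that is within 2-fold, and in 116 (87.2%) within 0.5, or 1.41-fold. The median SE was 0.13. These bounds hold on that scale alone, and with processed signal scaled to the detected miRs the interval of miR-146b-5p ran from 0.42 to 1.12. In 3 of the 133, the interval lay within 1.1-fold.

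The cells carried most of the miRs listed for β-cells. Of these 12, 8 were detected, whereas miR-200a-3p, miR-200b-3p, miR-429 and miR-184 were detected on none of the 6 arrays. MiR-7a-5p, an abundant endocrine miR, had the highest mean of all 758 over the 6 arrays, followed by let-7a-5p, miR-23b-3p, let-7f-5p and miR-24-3p. Of 8 miRs listed as neuronal, 4 were detected. None of the miRs listed for acinar cells (3), fibroblasts and smooth muscle (5), endothelium (2), blood (6) or liver (1) was detected on all arrays of a group, and of 4 muscle miRs only miR-206-3p was. The summed processed intensity of the β-cell list, taking the median of the 16 spots of each miR, was 3626 to 4540 in the controls and 4303 to 5204 with cytokines. That of the blood list was 13.9 to 19.0 and 14.8 to 20.8, and that of the fibroblast and smooth muscle list 9.95 to 39.7 and 16.5 to 32.7. For the endothelial list it was 6.57 to 9.09 and 8.97 to 11.4, for the muscle list 47.1 to 126.2 and 63.0 to 109.2, for the liver list 4.09 to 13.5 and 5.67 to 12.3, and for the acinar list 0 on all 6 arrays. These sums were not scaled between arrays. The 75th percentile of processed signal over miRs detected on all 24 arrays was 392.7 ± 18.1 with cytokines and 338.2 ± 70.4 without (SD).

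The identity miRs differed little after 6 h. MiR-375-3p, which restrains insulin secretion, read 9.96, 10.07 and 10.28 in the controls and 10.04, 9.91 and 10.06 with cytokines, so the groups overlapped, and its log2FC was -0.10 (-0.35 to 0.15). That of miR-7a-5p was 0.04 (-0.11 to 0.20) and that of miR-204-5p, which represses MafA, 0.04 (-0.11 to 0.20). MiR-96-5p, of the sensory miR-183 cluster, was 0.15 (-0.16 to 0.46). Over the 12 miRs the median log2FC was -0.00145, 6 were above 0 and 6 below, and none had an unadjusted p under 0.05. Without normalization between arrays the median of the 133 detected miRs itself moved to 0.12, and miR-375-3p stood at 0.04.

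The miR-29 family, whose targets in β-cells include Mcl1 and syntaxin 1A, was among the brightest groups. MiR-29b-3p read 9.69, 9.91 and 9.77 in the controls and 10.07, 9.67 and 9.91 with cytokines, with overlap. Its log2FC was 0.09 (-0.25 to 0.42), that of miR-29a-3p 0.14 (-0.17 to 0.46) and that of miR-29c-3p 0.13 (-0.26 to 0.52). Among the lists of other families, the median log2FC was 0.09 for 7 miR-29 arms, 0.05 for 5 miR-30 members, -0.02 for 9 let-7 members, 0.01 for 10 members of the miR-17/92 and related clusters, 0.01 for 8 neuronal miRs and 0.01 for 6 miRs tied to insulin production. In none of these lists did a miR have an unadjusted p under 0.05. The 4 miRs used in the field as references for PCR lay between -0.04 and -0.02. Of these, miR-423-3p and miR-423-5p were detected on none of the 6 arrays, and let-7c-5p was called lower at 24 h, at -0.38 on the quantile-normalized scale. A list of 13 miRs that the study singled out on these arrays, and which is therefore no independent evidence, had 11 above 0 and a median of 0.08.

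The same cytokines for 24 h, on other arrays, called 30 of 758 miRs (3.96%), 20 higher (2.64%) and 10 lower (1.32%). The pooled test called 48 there (6.33%). Higher and lower refer to quantile-normalized values. Without normalization between arrays, the median log2FC at 24 h was 0.80 for the 133 detected miRs. It was then 1.21 for the 20 and 0.35, above 0, for the 10 called lower. The 24h_Ctrl arrays lay on 1 slide and the 24h_Cyt arrays on 2 others, so slide and treatment could be separated at 24 h only through arrays of other groups. In a fit that held slide as a fixed block, 1 of the 30 was still called, miR-146a-5p (0.61, adjusted p = 7.21e-05). MiR-146b-5p was then at 0.61 (adjusted p = 0.687) and miR-203a-3p at 0.30 (adjusted p = 0.187). Of the 20, 15 had a log2FC above 0 at 6 h, and all 10 of the others were below 0. With slide as a fixed block for both times, 11 of the 20 and 9 of the 10 had the same sign at 6 h and 24 h. The median of the 20 at 6 h was then 0.0094. These shares are to be read against all detected miRs. With the block, 64.7% of these had the same sign at both times (54.0% of all 758), and without it 76.7% (64.2% of all 758). The sizes were small at 6 h, with a median of 0.05 for the 20, against 0.46 at 24 h, and of -0.07 for the 10, against -0.39. Of the 20, miR-146b-5p, miR-203a-3p and miR-146a-5p had the largest values at 6 h, followed by miR-96-5p, miR-29a-3p and miR-29c-3p at 0.13 to 0.15. MiR-101a-3p, miR-153-3p and miR-598-3p, each above 0.46 at 24 h, were at 0.05, 0.05 and -0.0061 at 6 h. Of the 6 arrays at 6 h, only 6h_Cyt replicate 1 had miR-101a-3p well above background. Among the 10, miR-129-5p, a neuronal miR, was at -0.09 at 6 h and -0.89 at 24 h, and miR-494-3p, of a large imprinted miR cluster, was at -0.17 and -0.62. Across the 133 detected miRs the effects at the 2 times had Pearson r = 0.63, a description over miRs that share arrays and labelling. Without the high-score arrays it was 0.61, with slide as a fixed block 0.33. MiR-146b-5p had a log2FC of 0.44 at 6 h and of 0.76 at 24 h, and the difference between the times was 0.33 (95% interval -0.21 to 0.86, adjusted p = 0.782), so whether the effect had grown could not be told from these arrays.

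**Figure D5:**
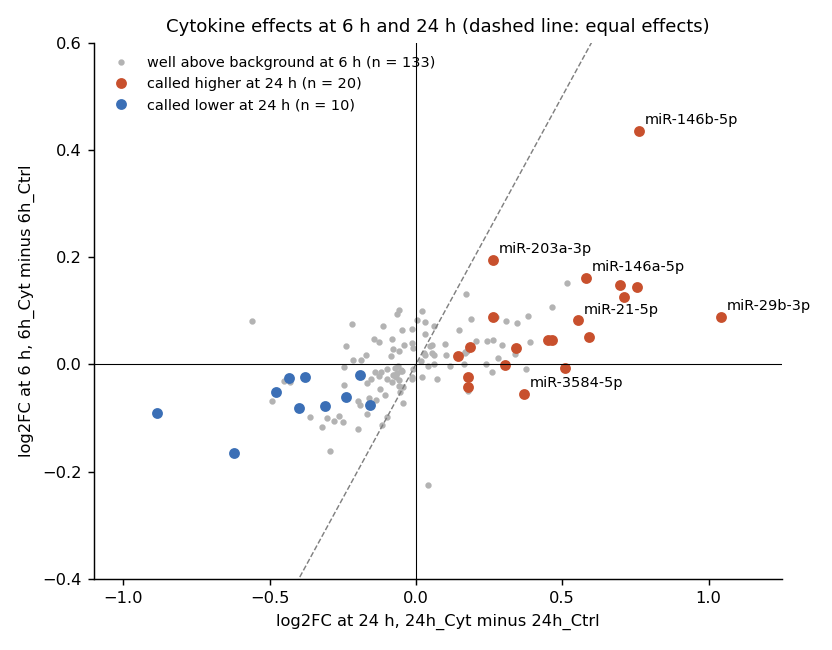
Cytokine effect at 6 h (y axis, log2FC) against that at 24 h (x axis, log2FC; the axes have unequal scales); red, 20 miRs called higher at 24 h, blue, 10 called lower, grey, detected miRs, and the dashed line marks equal effects. MiR-29b-3p lay at 1.04 on the x axis and 0.09 on the y axis, and miR-146b-5p at 0.76 and 0.44.

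The effect of time was itself tested, as the cytokine effect at 24 h minus that at 6 h, and 4 of 758 miRs (0.528%) were called, with 72 (9.5%) at an unadjusted p under 0.05 and 21 (2.77%) called by the pooled test. For miR-146a-5p the effect was larger at 24 h by 0.42 (95% interval 0.33 to 0.51, adjusted p = 2.21e-05), and at 24 h all 3 cytokine arrays had miR-146a-5p well above background, at 6.04 ± 0.06 (SD) against 5.45 ± 0.03 on 3 control arrays without detection. MiR-3584-5p differed by 0.42 (adjusted p = 0.00379), with a signal difference of -0.05 at 6 h and 0.37 at 24 h. It was detected on none of the 6h_Cyt and 6h_Ctrl arrays. MiR-762 and miR-877, which were not well above background at either time, differed by 0.22 (adjusted p = 0.000427) and 0.20 (adjusted p = 0.0111). Groups and slides were not balanced over the 2 times, and with slide as a fixed block miR-146a-5p alone was called, at 0.46 (adjusted p = 0.0415). Without both high-score arrays miR-877 was no longer called. MiR-29b-3p, with the largest effect at 24 h (1.04), differed between the times by 0.95 (0.48 to 1.43, adjusted p = 0.0704), and miR-21-5p by 0.47 (0.03 to 0.92, adjusted p = 0.471). Neither passed the test, although miR-29b-3p was called when 2 arrays of the Givinostat groups, described next, were left out of the fit.

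With Givinostat present, the 6 h cytokine effect was measured on other arrays. The 3 6h_Giv_Cyt arrays lay on 1 slide and the 6h_Giv_Ctrl arrays on 2 others, so slide and cytokines could be separated only through arrays of other groups. No miR was called (0%), nor did any miR differ between the effects with and without Givinostat (0%), with 12 miRs (1.58%) at an unadjusted p under 0.05 for the difference and 1 (0.132%) called by the pooled test, miR-96-5p. For miR-146a-5p the cytokine effect was 0.07 with Givinostat against 0.16 without, and the difference of -0.09 had a 95% interval of -0.19 to 0.000106. For miR-203a-3p it was 0.06 against 0.19, a difference of -0.13 (-0.28 to 0.02). In the slide-blocked fit, the cytokine effect under Givinostat was 0.02 for miR-146a-5p and turned to -0.07 for miR-203a-3p, whose difference was then -0.22 (-0.40 to -0.04, adjusted p = 0.990). MiR-146b-5p was at 0.16 against 0.44, a difference of -0.28 (-0.81 to 0.26). That value depended on 2 arrays which stood apart from their groups, 6h_Giv_Ctrl replicate 1 and 6h_Giv_Cyt replicate 3, with array scores of -4.05 and 4.83. Without these, the effect of cytokines on miR-146b-5p under Givinostat was 0.58 and its difference from the effect without Givinostat 0.15 (-0.23 to 0.52), and on miR-203a-3p it was 0.17, with a difference of -0.02 (-0.13 to 0.09). The effect on miR-146a-5p was 0.07 in either case. The arrays left were not of like score, at 2.97 and 2.71 for 6h_Giv_Ctrl and -1.23 and -0.36 for 6h_Giv_Cyt. With all arrays and the score as a covariate, the miR-146b-5p effect under Givinostat was 0.21. Its difference was then -0.21 (-0.36 to -0.05, adjusted p = 0.562 by limma), which is no independent evidence because of how the score was built. Of the 133 detected miRs, 37.6% had the same sign of the 6 h effect with and without Givinostat, 51.9% when those 2 arrays were left out and 65.4% with slide as a fixed block.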

How the data were processed

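Total RNA enriched for miRs was labelled with Cy3 and hybridized to 1-colour Agilent rat arrays. The deposited scanner files hold spot intensity values from Agilent Feature Extraction (10.7.3.1 in the file headers, 9.1 in the submitters' notes), and the marks for spots well above background or outlying were used as the files give them. The deposited table holds log2 values made by the authors, who took the median foreground without background correction, removed control probes and normalized by quantiles. It was used as an alternative.

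From the scanner files, 12128 miR spots per array (control spots removed) were quantile-normalized over 24 arrays on the log2 scale and averaged over the 16 spots of a miR. Groups were compared with limma 3.58.1 in R 4.3.3 (lmFit, eBayes, 8 group means, 16 residual degrees of freedom), with Benjamini-Hochberg adjustment over 758 miRs. The threshold of log2FC 0.14 is 1.10-fold. The number of arrays limits the precision. Settings tried were 17 alternatives, leaving out each of 24 arrays, and 6 chosen after seeing the data. The fit was run on simulated data whose noise was drawn independently for each miR and array. Variation shared by the miRs of an array, as seen here, was therefore not part of that check. Named miRs were those on the lists, called in any test of the 6 h effect, detected without overlap, or brightest. The members and lists were chosen with earlier results of these data known. Tables and figures were made in Python 3.11.15 with matplotlib 3.10.9. Columns of the scanner files other than signals and marks were not analysed here.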

Additional observations from a re-analysis of the deposited data

Results flagged for a closer look

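The cytokine effect differed between 6 h and 24 h, by a test of that difference with limma and Benjamini-Hochberg adjustment, for 4 miRs. The effect was larger at 24 h by 0.42 on the log2 scale for miR-146a-5p, by 0.42 for miR-3584-5p, by 0.22 for miR-762 and by 0.20 for miR-877. None of these miRs was detected on any 6h_Cyt or 6h_Ctrl array. At 6 h the first of these was higher with cytokines on 3 of 3 arrays and the other 3 had log2FC values between -0.05 and -0.02. No group held more than 3 arrays, so single arrays were not examined for outlying values by a test.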

How the results depend on the processing

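The count of miRs called at 6 h was 0 and remained 0 under most settings. It was 2 with the pooled test and with total signal, a setting in which most residual variances were 0. It was 1 with the mean foreground, with processed signal scaled to the detected miRs (miR-203a-3p, near the floor) and with array weights. Of the settings chosen after seeing the data, it was 3 with the first residual component or with the array score as a covariate, and 1 without 6h_Giv_Ctrl replicate 1 and 6h_Giv_Cyt replicate 3 or without all 4 arrays that stood apart. Both are built from the residuals of the same arrays and take the same variation out of the error, so their calls are no independent evidence. Leaving out 1 array at a time gave 0 to 2 calls, with miR-146a-5p called without 24h_Cyt replicate 1 or 3, 24h_Giv_Cyt replicate 1 or 2 or 6h_Giv_Ctrl replicate 1, and miR-203a-3p also called without the last. The replicate block gave 0 calls for 6 h, with a smallest adjusted p of 0.123. The labels do not say whether equal replicate numbers mark paired samples, and 6h_Ctrl replicate 1 resembled 6h_Cyt replicate 2 best.

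For miR-146a-5p the log2FC was 0.16 with the mean foreground, the component and the score, where it was called, and 0.14 to 0.18 on leaving out 1 array at a time, and for miR-146b-5p it was 0.44 with the pooled test or the component, 0.78 with total signal and 0.42 with the score. The 4 calls for the difference between 24 h and 6 h became 21 with the pooled test, 51 with processed signal scaled to the detected miRs or with no normalization, 9 with processed signal scaled to all miRs and with total signal, 1 with slide as a fixed block, 8 with array weights, 7 and 8 without 2 or 4 arrays that stood apart, 48 with the component and 38 with the score. The difference with Givinostat, 0, became 1 with the pooled test and 1 with total signal. Of 24 named miRs, 19 turned sign in no setting that gave a value, and dim miRs at the floor in both groups had none with processed or total signal (miR-146a-5p with total signal). MiR-132-3p (0.048) and miR-375-3p (0.042) turned without normalization, miR-375-3p also without outlier spots (0.0024). MiR-29b-3p was -0.0055 with slide as a fixed block and within the shared slide, and -0.0055 to 0.20 on leaving out 1 array. MiR-7a-5p was -0.050 and -0.12 with the processed signal scalings, -0.060 with total signal and -0.15 without outlier spots, and -0.0090 to 0.13 on leaving out 1 array. MiR-877 ranged from -0.044 to 0.0017 on leaving out 1 array. Slide alone took the calls for the difference between times from 4 to 1, and within the shared slide no such value exists.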
